A study of Homo sapiens with 6 samples.

Results

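The genes described here are 36 genes of cholesterol and fatty acid synthesis and their control. The choice was by name from textbook pathway membership and not by values, though earlier results of these data were known. All 36 are among the 18056 genes of the deposited table, and all 36 passed the filter on low counts, among 13842 genes tested. They were measured by RNA sequencing in human forebrain organoids, cell aggregates that resemble the dorsal forebrain, grown from DYR0100, an induced pluripotent stem cell line without an engineered genotype (labelled WT). Organoids received either vehicle (3 libraries, replicates 1 to 3) or Aβ42 at 5 µM (also 3), the aggregation-prone amyloid-β peptide, in both cases for 6 days and in 1 labelled batch. The labels do not say whether replicates were separate cultures, so p-values measure the spread between these libraries of 1 line, which may be technical. The comparison asks whether lipid synthesis transcripts differ between exposed and unexposed organoids, and whether sterol genes and fatty acid genes do so alike.

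Cholesterol is built from acetyl-CoA through mevalonate, isoprenoids, squalene and lanosterol, and fatty acids from the same precursor through malonyl-CoA. Both pathways are switched on by the SREBP transcription factors, which INSIG proteins hold in the endoplasmic reticulum with their escort SCAP while membrane sterol is plentiful. Lipoproteins bring little cholesterol across the blood-brain barrier, so neural cells make most of their own, and neurons dispose of it through the hydroxylase CYP46A1.

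Libraries held 16465390 to 16742958 estimated counts, of which the 36 genes together took 0.389% to 0.467%. The dorsal forebrain markers EMX1, EMX2, PAX6, LHX2 and TBR1 were expressed in every library, with vehicle means from 24.3 ± 1.62 TPM (SD, n = 3) for EMX1 to 184 ± 5.97 TPM for LHX2. TPM is scaled for gene length and library total, so it is the scale on which genes are compared with each other below. CPM (counts scaled to library size by TMM) is used for 1 gene across libraries. No microglia marker of 9 had enough counts to test, and C1QA, C1QB and TYROBP had 0 counts in every library. In edgeR's quasi-likelihood test without a block 0 of all genes passed the threshold with all libraries, and 3224 passed without Aβ42 replicate 2, so results are also given without that library where this changes a call. Deviations from the group mean correlated at 0.388 between the libraries numbered 2. Those of numbers 1 and 3 correlated about as much across the 2 numbers (0.154 and 0.177) as within them (0.181 and 0.129). The fit with the number as a block (the replicate block), whose calls rest on this pairing, is given beside each call of a lipid gene it changes.

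In vehicle organoids the 36 genes spanned 7.36 ± 0.315 TPM (SD, n = 3) for MVK, mevalonate kinase, to 277 ± 17.6 TPM for HMGCS1, which makes HMG-CoA. FDFT1, squalene synthase, followed at 271 ± 37.2 TPM and SCD, the desaturase that makes oleate, at 241 ± 25.2 TPM. HMGCS1 and FDFT1 differed by less than their SD, and both were above SCD in each vehicle library. MSMO1, a sterol C4-methyl oxidase, was at 200.3 ± 8.97 TPM and ACLY, which makes cytosolic acetyl-CoA, at 164 ± 5.19 TPM. Among the regulators SREBF2, the sterol-directed SREBP gene, was at 161 ± 10.4 TPM, against 11.4 ± 1.89 TPM for SREBF1, its lipogenic paralogue. The ratio of the 2 was 12.7 to 17.4 in vehicle and 16.1 to 19.1 with Aβ42, and these ranges overlapped. CYP46A1 was near the bottom at 10.5 ± 0.80 TPM.

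**Figure D1:**
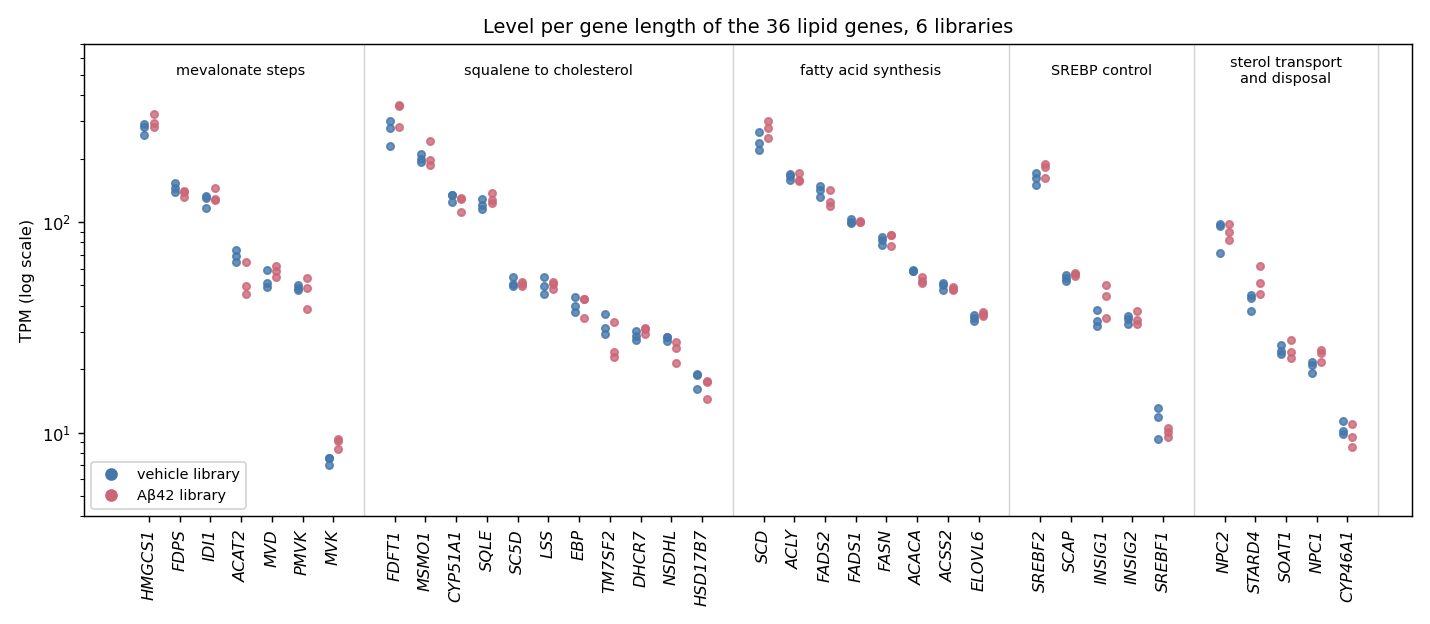
Level of each of the 36 genes in TPM (y axis, log scale), with genes on the x axis by role and 1 point for each of the 3 vehicle (blue) and 3 Aβ42 (red) libraries. HMGCS1, FDFT1 and SCD had the highest levels in vehicle and MVK the lowest, and differences between genes were far larger than those between groups.

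Differences with Aβ42 were small, and none passed over the whole table: 0 of the 36 genes had an adjusted p-value under 0.05 in edgeR's quasi-likelihood test, and neither did any other gene (0% of 13842). Before adjustment 8 of 36 had a p-value under 0.05 (22.2%, against 23.9% of all tested genes). They comprise 6 higher (HMGCS1, SQLE, SCD, SREBF2, INSIG1 and NPC1), or 16.7% against a background of 12.4%, and 2 lower (ACAT2 and ACACA), or 5.56% against 11.5%. DESeq2 called 2 of 36 higher, INSIG1 (adjusted p = 0.0427) and SCD (0.0473), against 2.81% of all tested genes, while limma-voom called 0, with 9 of 36 at an unadjusted p-value under 0.05, against 23.8%. The 3 Aβ42 values lay wholly above or below the 3 vehicle values for 6 of 36 genes (16.7%, against 27% of all tested genes): MVK, DHCR7, ELOVL6, SCAP and NPC1 above (background 13.6%) and ACACA below (13.4%). On the TPM scale 2 lay above, MVK and STARD4 (background 9%), and 2 below, ACACA and NSDHL (18.6%). Irrespective of any test, 26 of 36 log2 fold changes were above 0 (72.2%, against 50.7% of all tested genes). In organoids sequenced whole, fewer cells of a type and less RNA per cell cannot be told apart.

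With the replicate block, 7 of 36 genes rose and 0 fell (19.4% called, against 14.2% of all tested genes, 7.12% higher and 7.05% lower). The 7 were HMGCS1, FDFT1, SCD, SREBF2, INSIG1, STARD4 and NPC1, with log2 fold changes of 0.16 to 0.36. They comprise 2 enzymes of sterol synthesis, 1 of fatty acid desaturation, 2 parts of the SREBP system and 2 sterol transport proteins. Without Aβ42 replicate 2, 8 of 36 passed (22.2%, against 23.1% of all tested genes): HMGCS1, SQLE, SCD, SREBF2, INSIG1 and NPC1 higher (background 11.5%), ACAT2 and TM7SF2 lower (11.6%). Without both libraries numbered 2, an alternative added after the data were seen, 7 passed, against 16.7% of all tested genes. FDFT1, SCD, SREBF2, INSIG1, STARD4 and NPC1 were higher and ACAT2 was lower. SCD, SREBF2, INSIG1 and NPC1 were called higher in each of these 3 fits. How many of all tested genes were called in all 3 was not counted. These 3 fits called the most genes of all fits tried (14.2%, 23.1% and 16.7% of all tested genes). The fits are not independent, as 2 of them leave out Aβ42 replicate 2, the exposed library most like vehicle. When any other single library was left out, without a block, 0 of the 36 genes passed.

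**Figure D2:**
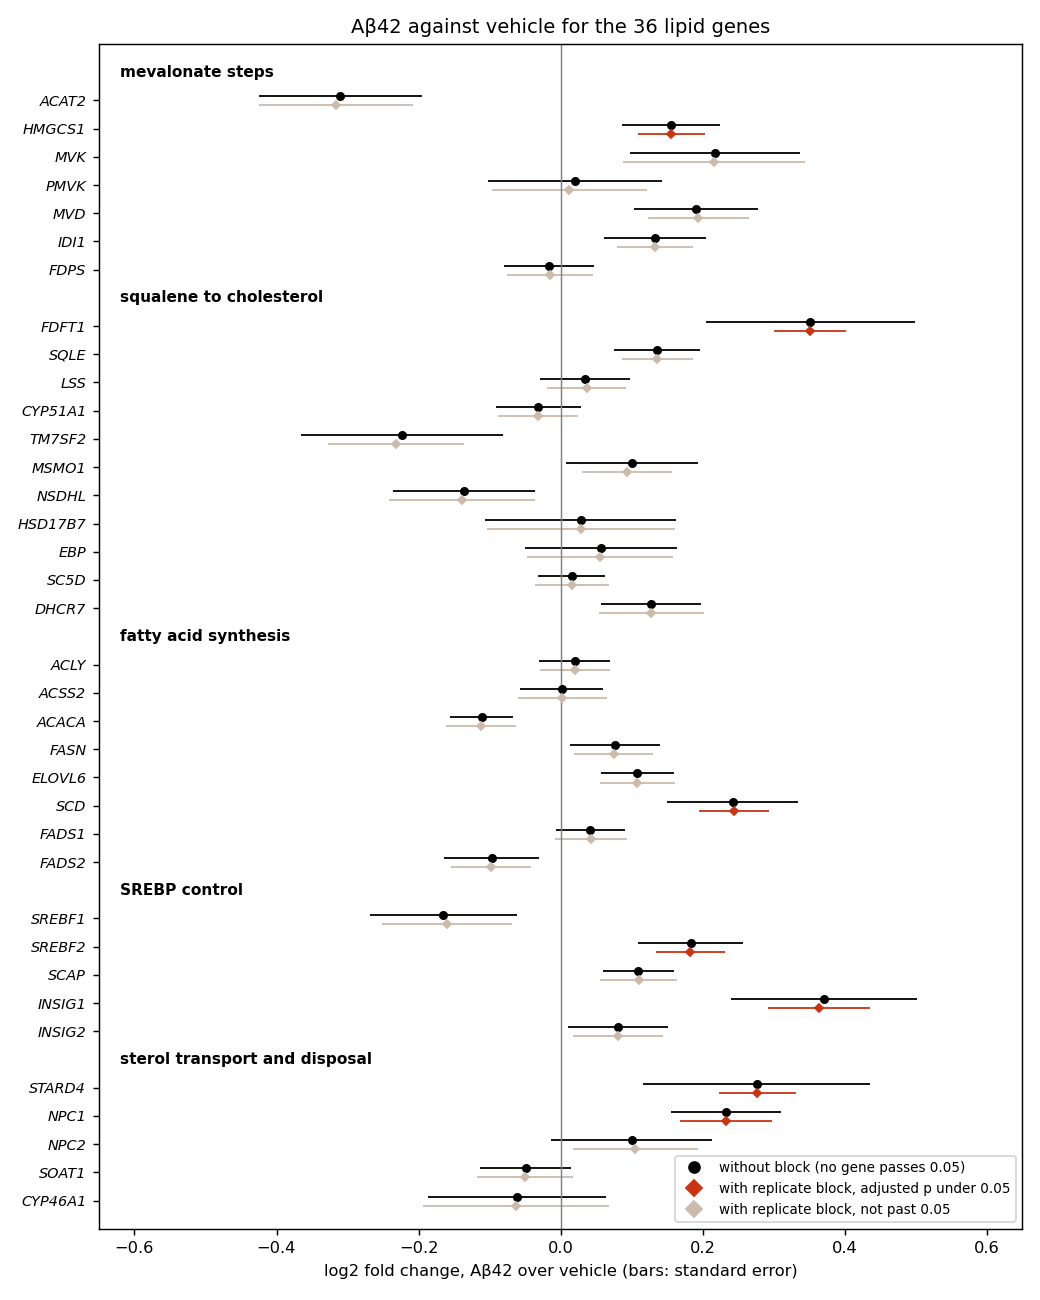
Log2 fold change of Aβ42 over vehicle (x axis) with its standard error for the 36 genes, grouped by role, without a block (black circles) and with the replicate block (diamonds, red where the adjusted p-value is under 0.05). The 7 red diamonds all lie to the right of 0, between 0.16 and 0.36, and the block leaves the fold changes nearly in place while it narrows many error bars.

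Over the mevalonate steps the median log2 fold change was 0.13 (5 of 7 genes above 0), against 0.0032 over all tested genes. HMGCS1 (Entrez gene ID 3157), a classical SREBP target, had 551, 473 and 525 CPM in the vehicle libraries and 617, 533 and 575 CPM in the exposed ones, listed here and below by replicate number. Replicate 2 was the lowest library of each group, and the groups overlapped only because Aβ42 replicate 2 lay below vehicle replicate 1. The log2 fold change of HMGCS1 was 0.16 ± 0.07 (SE, adjusted p = 0.202 with edgeR), and 0.16 ± 0.05 with the replicate block (adjusted p = 0.0368). Without vehicle replicate 2 it was 0.096 and without Aβ42 replicate 1 it was 0.10, and without both libraries numbered 2 it did not pass (adjusted p = 0.0875). Close in size were MVD, which makes isopentenyl diphosphate (0.19 ± 0.09, adjusted p = 0.213), and IDI1, its isomerase (0.13 ± 0.07, 0.283). MVK, at 0.22 ± 0.12 (0.289), had groups that did not overlap, from 6.61 to 6.93 CPM in vehicle and 7.32 to 8.20 CPM with Aβ42. PMVK and FDPS, the kinase and the farnesyl diphosphate synthase of the route, were at 0.02 and -0.02.

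ACAT2, the cytosolic thiolase at the entry to the mevalonate route, had a log2 fold change of the opposite sign. It had 36.7, 31.6 and 34.0 CPM in vehicle and 25.5, 33.0 and 24.1 CPM with Aβ42, so that only Aβ42 replicate 2 lay within the vehicle range. Its log2 fold change was -0.31 ± 0.11 (adjusted p = 0.15). It was -0.46 without Aβ42 replicate 2 (adjusted p = 0.00219) and -0.52 without both libraries numbered 2 (0.00152). The counts of ACAT2 were not whole in any of the 6 libraries, as when reads are divided between features, so its level is uncertain.

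From squalene to cholesterol the median was 0.03 (8 of 11 above 0). FDFT1 (2222), which commits farnesyl diphosphate to sterols, had the largest fold change of the sterol enzymes. It was at 221, 164 and 203 CPM in vehicle and 269.8, 207 and 273 CPM with Aβ42. Here too replicate 2 was lowest in each group, and Aβ42 replicate 2 fell between the vehicle libraries while the other exposed libraries lay above all of them. The log2 fold change was 0.35 ± 0.15 (adjusted p = 0.213) without a block and 0.35 ± 0.05 with it (0.000397). Within each replicate number it was 0.29, 0.34 and 0.43. A difference of the same sign in all 3 numbers was found in 17 of the 36 genes (47.2%, against 50.2% of all tested genes).

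SQLE (6713), squalene epoxidase and a rate-limiting step of the pathway, had 140.0, 124 and 131 CPM in vehicle and 153, 136 and 145 CPM with Aβ42. The ranges overlapped, and the log2 fold change of SQLE was 0.14 ± 0.06 (adjusted p = 0.203, with the block 0.0806). It passed without Aβ42 replicate 2 (0.18, adjusted p = 0.037). DHCR7, the last reductase of the Kandutsch-Russell branch, had groups without overlap (25.9 to 29.0 and 29.4 to 30.5 CPM) but a log2 fold change of 0.13 ± 0.07 (adjusted p = 0.293).

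The middle of the pathway showed little difference. LSS, lanosterol synthase (0.03), CYP51A1, lanosterol demethylase (-0.03), SC5D, the C5 desaturase (0.02), HSD17B7, a ketoreductase of C4 demethylation (0.03), and EBP, the sterol isomerase (0.06), all had standard errors larger than their log2 fold changes, and the signs of SC5D, HSD17B7 and EBP turned on the log2(TPM + 1) scale. MSMO1 was at 0.10 ± 0.09 and NSDHL, the other enzyme of C4 demethylation, at -0.14 ± 0.10.

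TM7SF2 and LBR encode the pair of sterol C14 reductases of the pathway. TM7SF2 was at 15.3, 18.6 and 16.1 CPM in vehicle and 12.1, 17.6 and 13.02 CPM with Aβ42, with Aβ42 replicate 2 inside the vehicle range (log2 fold change -0.22 ± 0.14, adjusted p = 0.361). Without Aβ42 replicate 2 it was -0.41 (adjusted p = 0.0194), without vehicle replicate 2 it was -0.14 and without Aβ42 replicate 1 it was -0.12. LBR, which is also the lamin B receptor of the nuclear envelope and is not one of the 36, was at 103, 116 and 110 CPM in vehicle and 86.1, 92.7 and 78.9 CPM with Aβ42, all 3 exposed libraries lying below all 3 vehicle libraries. LBR had a log2 fold change of -0.35 ± 0.07 (adjusted p = 0.0684), and it fell with the block (adjusted p = 0.000994). Markers of dividing cells were also lower. The summed level of 10 proliferation markers was 460 to 554 TPM in vehicle and 293 to 424 TPM with Aβ42, with Aβ42 replicate 2 nearest to vehicle at 424 TPM. With the block 9 of the 10 fell, against 7.05% of all tested genes. So did 3 of 10 pan-neuronal and 3 of 9 radial glia markers. The part of these markers in the result was not tested.

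Fatty acid synthesis genes had a median of 0.03 (6 of 8 above 0), and they did not move as 1 group. SCD (6319) was at 553, 439.9 and 480.4 CPM in vehicle and 627, 521 and 594 CPM with Aβ42, with replicate 2 lowest in each group and Aβ42 replicate 2 below vehicle replicate 1. Its log2 fold change was 0.24 ± 0.09 (adjusted p = 0.162) without a block, and SCD rose with the replicate block (0.24 ± 0.05, adjusted p = 0.00369). Relative to SCD5, the other human stearoyl-CoA desaturase gene, the TPM ratio was 0.993 to 1.15 in vehicle and 1.25 to 1.33 with Aβ42. These ranges did not overlap, in a ratio picked after the values were seen.

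ACACA (31), acetyl-CoA carboxylase, the committed step to malonyl-CoA, was the 1 gene of the 36 whose CPM in every exposed library lay below all vehicle libraries (with RLE scaling, and on TPM, NSDHL did so too). It had 228, 225 and 226 CPM in vehicle and 203, 215 and 211 CPM with Aβ42. The vehicle values were within 4 CPM of each other, and the highest exposed value was below the lowest of them. The log2 fold change of ACACA was -0.11 ± 0.04 (adjusted p = 0.162, with the block 0.143), and it did not pass in any alternative tried (smallest adjusted p = 0.0541). ACACB, the mitochondrial acetyl-CoA carboxylase, was at 0.21 ± 0.07 (adjusted p = 0.127), with all exposed libraries above all vehicle libraries, but at 7.27 TPM in vehicle against 58.6 TPM for ACACA.

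FASN (2194), which assembles palmitate, had 291, 274 and 263 CPM in vehicle and 300.1, 265 and 308 CPM with Aβ42. The groups overlapped widely, and the log2 fold change of FASN was 0.08 ± 0.06 (adjusted p = 0.479, with the block 0.398). ELOVL6, which elongates palmitate, had groups without overlap (86.0 to 93.1 and 93.7 to 99.0 CPM) and 0.11 ± 0.05 (adjusted p = 0.228). ACLY and ACSS2, the sources of cytosolic acetyl-CoA, were at 0.02 and 0.0013, and the desaturases of polyunsaturated fatty acids, FADS1 and FADS2, at 0.04 and -0.10, none of them past the threshold in any fit.

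Sterol and fatty acid genes were thus alike in the middle of their distributions. The median over the 18 sterol synthesis genes (mevalonate and squalene steps together) was 0.05 and that over the 8 fatty acid genes 0.03, a difference of 0.01. Per library, the mean deviation of log2 CPM from the gene mean ran 0.03, -0.07, -0.02 in vehicle and 0.04, 0.02, 0.0011 with Aβ42 for sterol genes. The fatty acid genes gave 0.05, -0.07, -0.02 in vehicle and 0.03, -0.0090, 0.03 with Aβ42. Vehicle replicate 2 was the lowest library on both, and vehicle replicate 1 lay among the exposed libraries for sterol genes and above all 3 for fatty acid genes. Within replicate numbers 1, 2 and 3 the Aβ42 minus vehicle difference of this score was 0.015, 0.094 and 0.024 for sterol genes and -0.013, 0.065 and 0.053 for fatty acid genes. It was above 0 in all 3 numbers for SREBP control (0.097, 0.063 and 0.18) and for transport (0.13, 0.052 and 0.12). Within the sterol genes, the mevalonate steps gave -0.022, 0.16 and 0.020, and the steps from squalene to cholesterol 0.038, 0.054 and 0.027. The difference of medians depended on single libraries, from -0.02 without Aβ42 replicate 1 to 0.06 when vehicle replicate 2 was left out. In log2(TPM + 1) the medians were 0.0017 and -0.02, where the median of all genes was itself -0.04. On that scale 9 of 18 sterol genes and 3 of 8 fatty acid genes were above 0, in place of 13 and 6, and 19 of the 36, in place of 26. Relative to the median of all genes the sterol median was 0.04 on both scales.

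**Figure D3:**
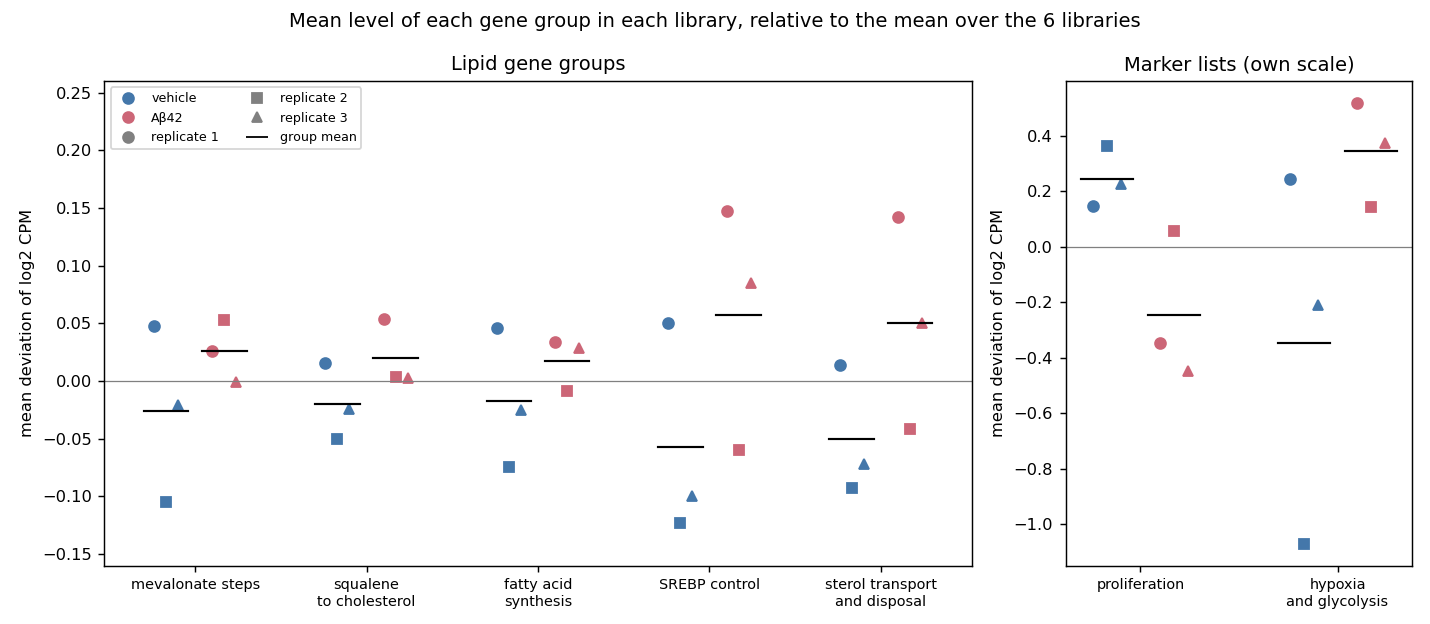
Mean deviation of log2 CPM from the gene mean (y axis) in each library for the 5 roles (left) and, on their own scale, for proliferation and for hypoxia and glycolysis markers (right), with vehicle in blue, Aβ42 in red, symbols for replicate numbers and bars for group means. Vehicle and Aβ42 libraries overlap in each lipid group, with vehicle replicate 2 lowest in all 5.

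The control genes of the SREBP system had a median of 0.11 (4 of 5 above 0). SREBF2 (6721) was at 349, 299 and 327 CPM in vehicle and 390.3, 332 and 384 CPM with Aβ42. Only Aβ42 replicate 2 overlapped the vehicle libraries. The log2 fold change of SREBF2 was 0.18 ± 0.07 (adjusted p = 0.172), and with the block it rose by 0.18 ± 0.05 (adjusted p = 0.0192). SREBF1 (6720) was at 21.8, 19.6 and 16.6 CPM in vehicle and 17.9, 16.9 and 17.03 CPM with Aβ42, where the exposed libraries sat close together inside the wider vehicle range (-0.17 ± 0.10, adjusted p = 0.35).

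INSIG1 (3638), itself an SREBP target and the sterol-sensitive brake of the system, had the largest log2 fold change of the 36 in the main test (on the log2(TPM + 1) scale STARD4 was at 0.31 and INSIG1 at 0.30). It was at 40.2, 33.5 and 36.3 CPM in vehicle and 54.5, 37.9 and 50.02 CPM with Aβ42. Replicate 2 was lowest in each group, and Aβ42 replicate 2 lay inside the vehicle range. The log2 fold change of INSIG1 was 0.37 ± 0.13 (adjusted p = 0.145) without a block and 0.36 ± 0.07 with it (0.00341). Without Aβ42 replicate 2 it was 0.51 (0.00113), and without both libraries numbered 2 it was 0.45 (0.00263). INSIG2, the paralogue that is not under the same feedback, was at 0.08 ± 0.07 (0.497). SCAP, which carries SREBP to the Golgi, had groups without overlap (83.4 to 90.4 and 92.3 to 93.4 CPM) at 0.11 ± 0.05 (adjusted p = 0.212).

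The transport and disposal genes had a median of 0.10 (3 of 5 above 0), which was -0.02 without vehicle replicate 3. STARD4 (134429), a carrier of cholesterol between membranes and an SREBP target, was at 89.7, 64.9 and 83.9 CPM in vehicle and 110.3, 79.6 and 98.8 CPM with Aβ42. The replicate 2 libraries were again the lowest, and the within-number differences were alike (0.30, 0.30 and 0.24 on the log2 scale). A shared sign in all 3 numbers was no more frequent in the 36 genes (47.2%) than in all tested genes (50.2%). STARD4 had a log2 fold change of 0.28 ± 0.16 (adjusted p = 0.342) without a block and 0.28 ± 0.05 with it (0.00301). Without vehicle replicate 2 it was 0.15 and without Aβ42 replicate 1 it was 0.17, both without a block. Its counts were not whole in any of the 6 libraries, so its level is uncertain in the same way as that of ACAT2.

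NPC1 (4864), which exports cholesterol from lysosomes, was at 38.6, 34.7 and 40.1 CPM in vehicle and 45.0, 40.8 and 47.5 CPM with Aβ42. Among the genes called with the block it was the 1 whose groups did not overlap in CPM. On TPM the groups of NPC1 overlapped narrowly (19.1 to 21.8 and 21.7 to 24.6 TPM), while those of STARD4 did not (38.0 to 44.9 and 45.7 to 61.7 TPM). The log2 fold change of NPC1 was 0.23 ± 0.08 (adjusted p = 0.12), and with the block it rose by 0.23 ± 0.06 (adjusted p = 0.0247). NPC2, its soluble lysosomal partner, was at 0.10 ± 0.11, SOAT1, which esterifies cholesterol for storage, at -0.05 ± 0.06, and CYP46A1 at -0.06 ± 0.13. None of these 3 passed in any fit. The counts of NPC1 were not whole in 3 libraries, those of IDI1 in 3, and those of SREBF2 and ELOVL6 in 1.

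**Figure D4:**
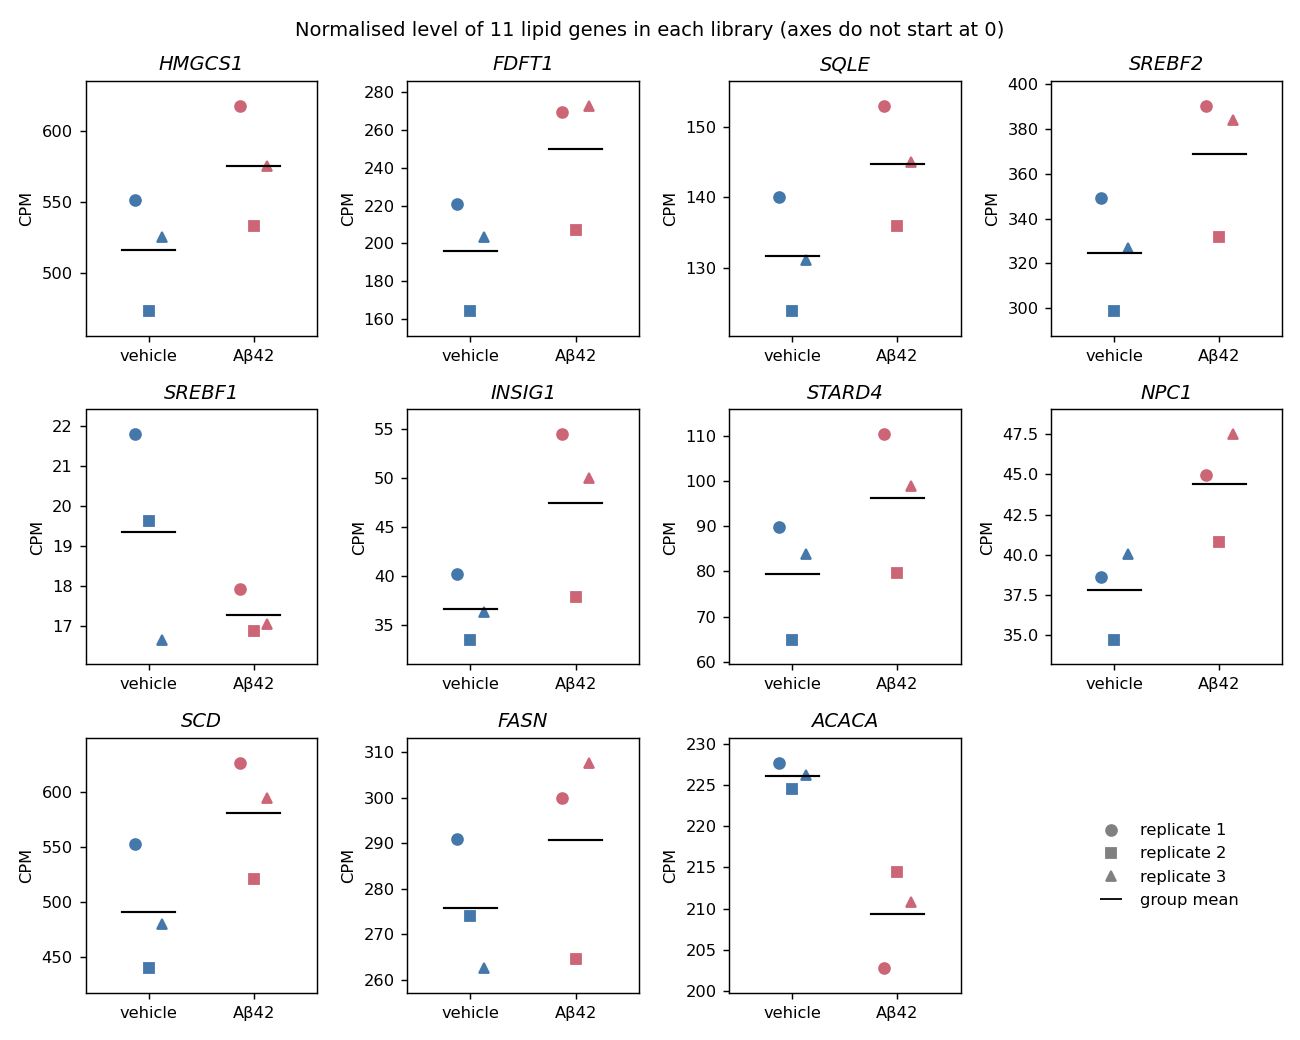
CPM (y axes, which do not start at 0) of 11 genes in the 3 vehicle (blue) and 3 Aβ42 (red) libraries, with symbols for replicate numbers and bars for group means. In HMGCS1, FDFT1, SQLE, SREBF2, INSIG1, STARD4, NPC1 and SCD replicate 2 (squares) is the lowest of each group, and only in NPC1 and ACACA do the groups not overlap on this scale.

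Replicate 2 was the lowest library of both groups in 14 of the 36 genes (38.9%), against 18.2% of all tested genes, and the highest of both in 2. The libraries numbered 2 also stood apart in other marker lists. The summed level of 7 choroid plexus markers, an epithelium that can form in organoids, was 7570 TPM in vehicle replicate 2 and 6662 TPM in Aβ42 replicate 2, against 2838 to 3966 TPM in the other 4 libraries. Nearly all of this was 1 marker, TTR, at 7487 TPM in vehicle replicate 2 and 6581 TPM in Aβ42 replicate 2. The summed level of 11 hypoxia and glycolysis genes was lowest in vehicle replicate 2, at 1573 TPM. It was 2289 and 2699 TPM in the other vehicle libraries and 2827 to 3362 TPM with Aβ42. All 11 log2 fold changes were above 0 (median 0.54, against 0.0032 over all tested genes). In 6 of the 11 all exposed libraries lay above all vehicle libraries (background 13.6%). With the block 4 of the 11 rose, against 7.12% of all tested genes. The part of these markers in the lipid gene results was not tested.

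Promoters of 5 of the 7 genes that rose with the block are shown because SREBPs act on such sequences together with the factor NF-Y. FDFT1 was matched to no window. The windows of NPC1 and of the downstream HMGCS1 start, which held none of the motifs marked here, are left out. Each line gives the 250 bases before the RefSeq start site (GRCh38.p14), 5′ to 3′ on the gene's strand. Capitals mark exact matches, on either strand, to TCACNCCAC (the core of a sterol regulatory element), to its shorter form CACNCCAC, a motif added after the first search, which any match to the longer form contains, and to the NF-Y box CCAAT. The windows are chr5:43313413-43313662 on the minus strand (HMGCS1, the upstream of its 2 listed starts), chr7:155297628-155297877 on the plus strand (INSIG1), chr10:100346983-100347232 on the plus strand (SCD), chr22:41832855-41833104 on the plus strand (SREBF2) and chr5:111512536-111512785 on the minus strand (STARD4).
HMGCS1: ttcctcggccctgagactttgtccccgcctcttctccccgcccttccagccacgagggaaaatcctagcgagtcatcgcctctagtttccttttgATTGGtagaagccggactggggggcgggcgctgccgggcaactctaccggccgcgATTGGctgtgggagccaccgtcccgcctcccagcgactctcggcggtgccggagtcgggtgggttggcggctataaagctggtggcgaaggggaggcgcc
INSIG1: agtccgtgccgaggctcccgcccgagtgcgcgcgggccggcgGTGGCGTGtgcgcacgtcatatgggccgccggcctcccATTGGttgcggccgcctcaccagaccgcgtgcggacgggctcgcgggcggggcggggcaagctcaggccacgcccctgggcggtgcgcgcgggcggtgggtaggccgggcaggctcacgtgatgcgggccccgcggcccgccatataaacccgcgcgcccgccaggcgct
SCD: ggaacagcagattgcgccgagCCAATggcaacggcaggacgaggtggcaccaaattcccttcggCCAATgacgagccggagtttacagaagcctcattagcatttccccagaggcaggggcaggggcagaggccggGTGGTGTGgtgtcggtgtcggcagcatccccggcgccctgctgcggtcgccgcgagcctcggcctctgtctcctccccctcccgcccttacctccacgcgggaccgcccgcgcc
SREBF2: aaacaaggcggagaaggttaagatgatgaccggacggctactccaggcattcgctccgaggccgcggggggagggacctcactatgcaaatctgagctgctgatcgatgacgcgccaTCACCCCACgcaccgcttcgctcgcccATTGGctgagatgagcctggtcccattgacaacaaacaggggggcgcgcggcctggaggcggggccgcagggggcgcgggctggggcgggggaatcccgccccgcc
STARD4: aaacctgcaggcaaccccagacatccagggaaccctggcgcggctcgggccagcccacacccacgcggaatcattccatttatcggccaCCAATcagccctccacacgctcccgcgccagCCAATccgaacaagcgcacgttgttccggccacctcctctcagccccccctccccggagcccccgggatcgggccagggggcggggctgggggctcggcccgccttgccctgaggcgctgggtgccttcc

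SREBF2 was the 1 gene of 31 with a listed promoter that held TCACNCCAC in the 300 bases from 250 before to 50 after a start site (3.23%, against 1.5% of tested genes with a listed promoter), 133 bases before its start. The shorter CACNCCAC was found in 6 of 31 (19.4%, against 8.08%): SREBF2, INSIG1, SCD, IDI1, SC5D and ACACA. Of these, IDI1, SC5D and ACACA did not pass in any fit, and ACACA had a log2 fold change below 0. HMGCS1 and STARD4 held neither the longer nor the shorter form. CCAAT was found in 23 of 31 (74.2%, against 43.2%), including HMGCS1, INSIG1, SCD, SREBF2 and STARD4. Genes that passed in no fit, such as MVK, NSDHL and EBP, held it as well. NPC1 held none of these motifs in its window. A match is a description of letters and not a bound site. ACAT2, FDFT1, SQLE, FASN and CYP46A1 were matched to no window.

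Of 40 other genes of sterol and fatty acid metabolism from a separate list, 38 were tested, 17 above and 21 below 0, with a median log2 fold change of -0.03. None passed without a block in edgeR's quasi-likelihood test. Before adjustment 9 of 38 had a p-value under 0.05 (23.7%, against 23.9% of all tested genes), 3 higher and 6 lower, and with the block 2 fell (5.26%, against 7.05%) and 0 rose. These 2 were LBR, described above, and APOE, the main brain apolipoprotein. APOE was at 12.1, 15.9 and 9.57 CPM in vehicle and 6.09, 10.5 and 5.10 CPM with Aβ42, with replicate 2 highest in each group (log2 fold change -0.79 ± 0.30, adjusted p = 0.17, with the block 0.00053). Besides LBR, the smallest p-values belonged to NR1H2, which encodes LXR-beta (0.25 ± 0.09, adjusted p = 0.123), ME1, malic enzyme (-1.18 ± 0.41, adjusted p = 0.126, from 15 to 19 counts in vehicle and 3 to 11 with Aβ42), and ACACB.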

How the data were processed

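The authors deposited a single table of read counts and TPM values per library, restricted to mRNA rows. Per the submitters' processing notes, FastQC, STAR 2.7.11b, featureCounts 2.0.6 and GRCh38 were used, with no roles or order given. The annotation, the strand setting and the origin of decimals are not given in the sources used here. Of the deposited count values 86.9% to 87.5% per library were whole (within 1e-06), so they were treated as estimated counts. TPM values were scaled by the authors for gene length and library total.

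Counts were rounded, filtered with filterByExpr (13842 of 18056 genes kept) and scaled by TMM. The main test was the two-sided quasi-likelihood test of edgeR 4.0.16 (R 4.3.3, robust, no block), adjusted by Benjamini-Hochberg over all tested genes, with a threshold of 0.05. Each SE was derived from the log2 fold change and its F statistic. Log2 CPM used a prior count of 2. Alternatives were DESeq2 1.42.0, limma 3.58.1 (voom, log2(TPM + 1) and log2(TPM + 0.1)), other scaling and filters, the replicate block and leaving out libraries. The code was tested on simulated data.

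Deviations from group means correlated at 0.181, 0.388 and 0.129 between libraries of equal number (12186 genes averaging 50 or more counts). All exceeded 0.1, so the replicate numbers were treated as a pairing, on the data alone. Between numbers 1 and 3 the values were 0.154 and 0.177, also above 0.1, so number 2 alone stood apart. Deviations within a group sum to 0, so likeness of the libraries numbered 2 alone can raise the values of numbers 1 and 3. The rule therefore cannot show that numbers 1 and 3 are paired. No pair of libraries was a duplicate (chi-square per gene 3.16 to 21.1). By this measure Aβ42 replicate 2 was nearer to vehicle replicates 1, 2 and 3 (3.16, 7.7 and 4.58) than to Aβ42 replicates 1 and 3 (9.4 and 8.48). Fits without Aβ42 replicate 2 thus leave out the exposed library most like vehicle. The biological coefficient of variation was 6.75%. PCR duplicates are not covered by any error given.

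The 36 genes, the gene lists and the tests were chosen with earlier results of these data known. By the naming rule, values per library are given for genes called with or without the block, for those with an unadjusted p-value under 0.05 and no overlap, and for 7 fixed genes (SREBF1, SREBF2, INSIG1, HMGCS1, SQLE, FASN and SCD). ACAT2, TM7SF2 and APOE were named after their values were seen. Of the other pathway genes the 4 with the smallest p-value are named. Some genes of these lists are not reported here. Promoter sequences come from RefSeq.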

Additional observations from a re-analysis of the deposited data

How the results depend on the processing

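With all libraries and no block, 0 genes passed; 360 did without a filter on low counts, 814 with DESeq2, 1962 with the replicate block, and 0 to 3224 when libraries were left out, the highest without Aβ42 replicate 2 (2316 without both libraries numbered 2). Of the 36 genes, 2 passed with DESeq2 and 7 with the replicate block (13 unadjusted, against 4060 of 13842 tested genes). With libraries left out, 0 to 6 passed higher and 0 to 2 lower. Unadjusted, 1 to 16 did so, against 1871 of 13961 to 5170 of 13960 tested genes. Across 15 alternatives, 10 passed in at least 1 and 23 kept their sign in all. The same counts over all tested genes were not made. The replicate block changed no call of the 36 genes or of the other pathway genes beyond those given. Calls of single cell type markers under the block are not listed here. Genes without overlap were 2 lower under RLE scaling (13.8% of all tested genes), 2 higher and 2 lower on TPM (9% and 18.6%), and 5 to 17 higher and 1 to 6 lower with libraries left out (16.2% to 29.8% and 15.8% to 29.8%).

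On the log2(TPM + 1) scale, with values at a pseudocount of 0.1 in brackets where they differ, the medians were 0.0017 for sterol synthesis, 0.013 (0.014) for all 36 genes, -0.0056 (-0.0058) from squalene to cholesterol and -0.016 for fatty acids. Signs turned there for PMVK -0.063 (-0.065), HSD17B7 -0.12, EBP -0.0056 (-0.0058), SC5D -0.026 (-0.027), ACLY -0.023, ACSS2 -0.043 (-0.044) and FADS1 -0.0089 (-0.0090). ACSS2 was -0.00041 with RLE scaling and with DESeq2. With libraries left out the medians ran from 0.011 to 0.10 for sterol synthesis, 0.068 to 0.18 for mevalonate steps, 0.0096 to 0.092 from squalene to cholesterol, -0.021 to 0.18 for transport and -0.020 to 0.069 for the sterol minus fatty acid difference.

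Single genes turned sign when libraries were left out, in these ranges: PMVK -0.093 to 0.15, FDPS -0.058 to 0.041, LSS -0.022 to 0.10, CYP51A1 -0.094 to 0.022, MSMO1 -0.018 to 0.19, HSD17B7 -0.058 to 0.14, SC5D -0.0045 to 0.055, ACLY -0.013 to 0.041, ACSS2 -0.042 to 0.026, NPC2 -0.021 to 0.18 and CYP46A1 -0.13 to 0.049. The cause was not tested. With 3 libraries a group, no difference of any size passed in the main test (log2 fold changes from -3.76 to 2.23 over all tested genes). Differences of 2 to 3 standard errors did not pass (NPC1 0.23 ± 0.08), nor did larger ones (LBR -0.35 ± 0.07). The lack of a call therefore does not show that a gene was unchanged.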
